A study of Mus musculus with 6 samples.

Results

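The Wnt signalling genes of inguinal white adipose tissue (iWAT), a fat depot under the skin of the groin, were compared between wild type (WT) mice and mice without Zip13. The set holds 50 genes, chosen by name: every Wnt ligand, Frizzled receptor, Sfrp, Dkk and R-spondin whose RefSeq transcript is the target of an array probe, with Frzb, Wif1, Lrp5, Lrp6, Lgr4, Axin2, Ctnnb1, Tcf7l1 and Tcf7l2. Of 21368 genes named on the array 15302 were bright enough to test, and of the 50 Wnt genes 37 were. RNA came from 10-week-old mice, with 3 WT and 3 Zip13-KO samples and 1 array for each; the labels number the samples as replicates without saying that each is a separate animal. Both genotypes were littermates on a C57BL/6J background, backcrossed for several generations, and all mice ate powdered food because Zip13-KO mice have too few teeth. The labels give both a standard and a high-fat food without saying which these mice ate, and their sex is not given in the sources used here. In the Zip13-KO line a neomycin cassette replaces internal exons of Zip13, so the gene is lost in every tissue from conception, and no result can be assigned to loss in fat cells alone.

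Wnt proteins are secreted lipid-modified signals. They bind Frizzled receptors together with Lrp5 or Lrp6, after which beta-catenin (Ctnnb1) is no longer destroyed, enters the nucleus and works with TCF/LEF factors such as Tcf7l1 and Tcf7l2. R-spondins, bound by Lgr receptors, keep Frizzleds at the cell surface, whereas Sfrp proteins, Frzb and Wif1 capture Wnts outside the cell and Dkk1, Dkk2 and Dkk4 act on Lrp5 and Lrp6. In fat, Wnt signalling through beta-catenin is known for holding preadipocytes back from becoming adipocytes, and Wnt5a is known mainly for signalling without beta-catenin.

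The targeted gene was checked first. Slc39a13, which encodes the zinc transporter ZIP13, gave log2 intensities of 11.30, 10.87 and 10.72 on the WT arrays and 6.76, 6.66 and 6.47 on the Zip13-KO arrays, a difference of -4.33 (SE 0.17, limma adjusted p = 0.00128). Whether its probe lies within the deleted exons was not determined. All 14 adipocyte markers were measured on these arrays, among them Adipoq and Plin1, with a summed normalized intensity of 702640 to 948069 on WT and 1076258 to 1131443 on Zip13-KO arrays. Of these markers 4 were called higher and 0 lower (median log2 difference 0.65). Other cells of the depot also differed: 9 of 12 macrophage markers were lower and 0 higher (median log2 difference -1.12), 5 of 14 markers of stroma and fibroblasts were lower and 0 higher (-0.73), and 3 of 10 endothelial markers were higher and 0 lower (0.44), where 10.3% of all genes tested were called higher and 8.38% lower. None of the 11 lymph node markers tested was called by limma. All lay below 0 (median -0.39), as did 7659 of all 15302 genes tested. All 3 Zip13-KO arrays were below all 3 WT arrays for 9 of these markers, and for 25.9% of all genes. The sum of the markers was 71803 to 88812 in WT and 52812 to 60432 in Zip13-KO iWAT. The summed skeletal muscle markers ran from 6504 to 10290 on WT arrays and from 10996 to 20250 on Zip13-KO arrays, highest on Zip13-KO replicate 3. Myl1, the brightest of the 11 tested and the 1 called (1.01), weighs most in these sums. The median shift of the list from the WT mean overlapped between genotypes. It was 0.07, -0.49 and 0.44 on WT arrays and -0.06, 0.72 and 2.01 on Zip13-KO arrays. Of 18 mammary epithelium markers 11 were tested, 0 were called, and Krt8, Krt7, Cldn4, Elf5, Csn2, Csn3 and Wap were not bright enough. In such pieces of whole tissue, fewer cells of a type and less RNA per cell cannot be told apart.

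Most Wnt genes measured did not pass the test. Wnt5a rose in Zip13-KO iWAT, Rspo3, Fzd10 and Sfrp4 fell, and the other 33 genes tested were not called. A gene was called when its Benjamini-Hochberg adjusted p, from limma over all 15302 genes, was under 0.05 and its change exceeded 1.5-fold. Among all genes tested 10.3% were called higher and 8.38% lower in Zip13-KO iWAT, against 2.7% and 8.11% of the 37 Wnt genes. An adjusted p under 0.05 was reached by 5 of the 37 Wnt genes, 2 higher and 3 lower. Over all 15302 genes it was reached by 2952 higher and 2330 lower, a larger share. An unadjusted p under 0.05 was reached by 10 of the 37 Wnt genes. It was not counted over all genes, but the 2952 and 2330 genes above necessarily reached it. The median log2 difference was 0.01 over the Wnt genes, with 19 above 0 and 18 below, and 0 over all genes. All 3 Zip13-KO arrays lay above all 3 WT arrays for 7 Wnt genes and below them for 6, whereas this held for 29.2% and 25.9% of all genes, so such separation was common in these data and is used below only to describe a gene. By role, the median log2 difference was -0.02 over 11 Wnt ligands, 0.15 over 3 R-spondins, 0.20 over 12 receptors, -0.30 over 7 secreted antagonists and 0.21 over 4 proteins of the cytoplasm and nucleus.

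**Figure D1:**
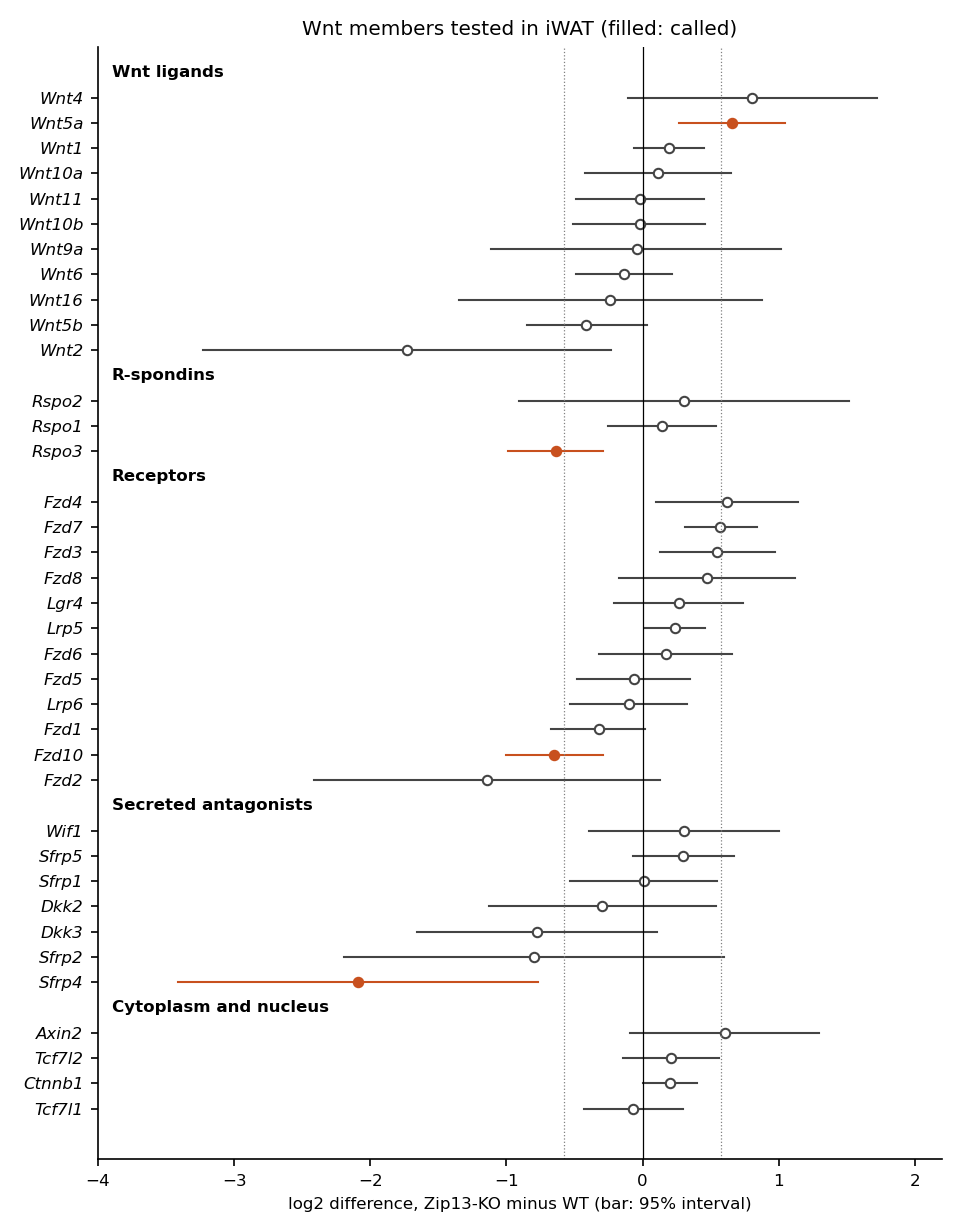
Log2 difference (Zip13-KO minus WT) for the 37 Wnt genes tested, grouped by role, with 95% confidence intervals from limma; filled points are called and dotted lines mark a log2 difference of 0.58 either way. Sfrp4 (-2.09) lies farthest from 0, and Wnt2, Fzd2 and Sfrp4 have wide intervals.

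Among the ligands, Wnt5a was the single gene called. Its log2 intensity was 8.29, 8.74 and 8.21 on the WT arrays and 9.17, 9.11 and 8.94 on the Zip13-KO arrays. Every Zip13-KO array lay above the brightest WT array, WT replicate 2. The log2 difference was 0.66 (SE 0.16, 1.58-fold, limma adjusted p = 0.025). The call was lost when WT replicate 1 (log2 difference 0.60, adjusted p = 0.0587), WT replicate 3 (0.56, 0.0571), Zip13-KO replicate 1 (0.61, 0.0864) or Zip13-KO replicate 2 (0.64, 0.08) was left out of the limma fit. It was also lost with normexp background correction, where the log2 difference of 0.57 fell just under the fold limit, and the direction was the same under every setting tried. Wnt5b, its close paralogue, gave 7.93, 8.04 and 7.53 in WT and 7.21, 7.36 and 7.69 in Zip13-KO iWAT. These values overlap, and the log2 difference of -0.41 (95% interval -0.85 to 0.03) did not pass (limma adjusted p = 0.123).

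Wnt2, a ligand that can signal through beta-catenin, was detected on every WT array and on no Zip13-KO array. Its log2 intensity was 6.35, 4.90 and 3.73 on the WT arrays and 3.36, 3.20 and 3.22 on the Zip13-KO arrays. The WT arrays differed widely among themselves, and the Zip13-KO signals were too dim to tell from background. With each Zip13-KO array raised to the lowest signal that passed the background test on it, Wnt2 was lower by 2.43-fold on average. This value belongs to background-subtracted intensities and is no lower bound under other corrections. WT replicate 3 (3.73) lay below the raised level of Zip13-KO replicates 2 (3.77) and 3 (3.80). The gene was not called (limma adjusted p = 0.0734). Wnt2 entered the test through WT alone, so its fitted difference (-1.73) and p rest on Zip13-KO values at background, also when the call is gained without WT replicate 3 (-2.36, adjusted p = 0.0188). The fitted difference shrank to -0.49 with normexp and to -0.64 with no background correction.

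The remaining ligands were not called. Wnt4 gave 4.71, 4.13 and 3.54 in WT and 5.15, 4.31 and 5.33 in Zip13-KO iWAT, with overlapping arrays and a log2 difference of 0.80 (95% interval -0.11 to 1.72, limma adjusted p = 0.143). That difference was 0.23 with normexp, 0.27 with no background correction and 0.28 in the deposited table, and a second Wnt4 probe was above background on no array. Wnt1 was brighter on every Zip13-KO array by a small amount (0.20, adjusted p = 0.19). A second probe for the same Wnt1 transcript was not above background on any array, so the signal of the brighter probe is not borne out by the other. Wnt10a (0.12), Wnt11 (-0.02), Wnt10b (-0.02), Wnt9a (-0.04), Wnt6 (-0.14) and Wnt16 (-0.24) had overlapping genotypes. A second Wnt16 probe, above background on 2 WT arrays and on no Zip13-KO array, gave a larger fall (-2.16), also with overlap. Wnt10b is the ligand best known for holding back fat cell formation, and its 95% interval ran from -0.51 to 0.46. Wnt2b, Wnt3, Wnt3a, Wnt7a, Wnt7b and Wnt8a were not well above background on any array, and Wnt8b and Wnt9b were on 1 array each.

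R-spondins amplify Wnt signals at the cell surface. Rspo3 gave log2 intensities of 6.35, 6.51 and 6.20 in WT and 5.92, 5.46 and 5.77 in Zip13-KO iWAT. The genotypes did not overlap, and Rspo3 fell by 0.64 on the log2 scale (SE 0.15, 1.56-fold, limma adjusted p = 0.021). Its call was lost without WT replicate 2 (-0.56, 0.0559), Zip13-KO replicate 2 (-0.51, 0.0549) or Zip13-KO replicate 3 (-0.67, 0.0541), the second value of each pair being the adjusted p. Without subtraction of the background the difference was smaller (-0.40), as it was with normexp (-0.34) and in the deposited table (-0.39), and under these settings it was not called. Rspo1 (0.15, 95% interval -0.25 to 0.54) and Rspo2 (0.30, -0.91 to 1.52) were not called. Rspo2 was above background on 2 of 3 WT arrays, and Rspo4 on 1 array in all, so Rspo4 was not tested. Lgr4, the R-spondin receptor of the set, had overlapping genotypes (0.27, 95% interval -0.21 to 0.74, limma adjusted p = 0.327).

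**Figure D2:**
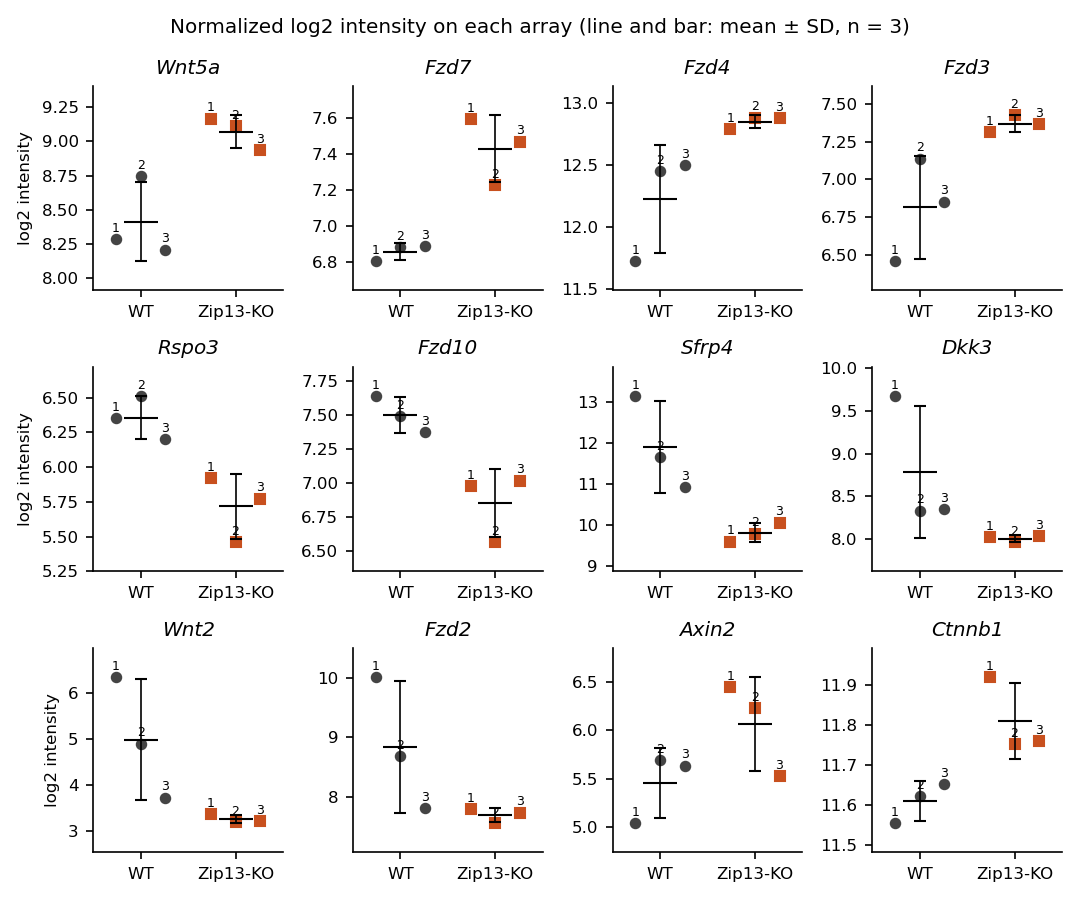
Normalized log2 intensity of 12 Wnt genes on each WT (circles) and Zip13-KO (squares) array, with replicate numbers, mean and SD (n = 3 for each genotype); each panel has its own scale. Wnt5a, Fzd7, Fzd4, Fzd3 and Ctnnb1 are higher on all 3 Zip13-KO arrays, Rspo3, Fzd10, Sfrp4, Dkk3, Wnt2 and Fzd2 are lower on all 3, and WT replicate 1 stands above the other WT arrays for Sfrp4, Dkk3, Wnt2 and Fzd2.

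Of the Frizzleds, the receptors that bind Wnts directly, Fzd10 was called, and fell. Its log2 intensity was 7.64, 7.49 and 7.37 on the WT arrays and 6.98, 6.56 and 7.02 on the Zip13-KO arrays. All Zip13-KO arrays were below all WT arrays, with a log2 difference of -0.65 (SE 0.15, 1.57-fold, limma adjusted p = 0.0209). The Fzd10 call was lost without WT replicate 1 (-0.58), WT replicate 2 (adjusted p = 0.0514), Zip13-KO replicate 1 (0.0532) or Zip13-KO replicate 2 (-0.50), and with no background correction (-0.51), normexp (-0.45) or the deposited table (-0.50). Fzd2 was also lower on every Zip13-KO array, at 7.79, 7.56 and 7.73 against 10.01, 8.69 and 7.81 in WT. The dimmest WT array nearly met the brightest Zip13-KO array, and the log2 difference of -1.14 (SE 0.52) was not called (limma adjusted p = 0.136). It was called without WT replicate 3 (-1.65, adjusted p = 0.0335) and was -0.55 without WT replicate 1. A dimmer Fzd2 probe gave -0.75.

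Fzd7, Fzd4 and Fzd3 were brighter on all Zip13-KO arrays without being called. Fzd7 gave 6.80, 6.88 and 6.89 in WT and 7.59, 7.23 and 7.47 in Zip13-KO iWAT. Its log2 difference of 0.57 (SE 0.11) passed the test (limma adjusted p = 0.0133) and fell just under the limit of 1.5-fold. Fzd7 passed that limit too without WT replicate 2 (0.58, adjusted p = 0.034), WT replicate 3 (0.59, 0.0292) or Zip13-KO replicate 2 (0.67, 0.03). Its second, dimmer probe, above background on 2 WT arrays and on no Zip13-KO array, ran the other way (-1.44). Fzd4 gave 11.73, 12.45 and 12.50 in WT and 12.79, 12.88 and 12.87 in Zip13-KO iWAT. The dimmest of these, WT replicate 1, was well below the other WT arrays, and the log2 difference of 0.62 (SE 0.21) was not called (limma adjusted p = 0.0663). It was called with 75th percentile scaling (0.71, adjusted p = 0.0433), and without WT replicate 1 it passed the adjusted p (0.0199) with a smaller difference of 0.37. Fzd3 gave 6.46, 7.14 and 6.85 in WT and 7.31, 7.42 and 7.37 in Zip13-KO iWAT (0.55, SE 0.17, limma adjusted p = 0.0521), and was called without WT replicate 2 (0.71, 0.026).

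Fzd4 with Lrp5 and the tetraspanin Tspan12 forms the receptor for Norrin, known for its role in blood vessels. Lrp5 gave 9.99, 9.74 and 9.79 in WT and 10.13, 10.07 and 10.04 in Zip13-KO iWAT, a small separation (0.24, 95% interval 0.02 to 0.46) that was not called (limma adjusted p = 0.0861). Tspan12 rose, from 11.11, 11.81 and 11.85 in WT to 12.66, 12.65 and 12.69 in Zip13-KO iWAT (1.08, SE 0.20, limma adjusted p = 0.013). Ndp, which encodes Norrin, was not bright enough to test. Tspan12, from a list of other pathway genes, was the single gene of this receptor called. Fzd4, Lrp5 and Tspan12 were brighter on every Zip13-KO array, as were 29.2% of all genes tested. Endothelial markers shifted with them: their median was between -0.06 and 0.12 from the WT mean on WT arrays and between 0.37 and 0.49 on Zip13-KO arrays, with a summed intensity of 30290 to 33884 and 41702 to 44463. Adipocyte markers also did, at -0.38 on WT replicate 1, 0.24 and 0.15 on the other WT arrays and 0.61 to 0.67 on Zip13-KO arrays. Fzd4 and Tspan12, like the adipocyte markers, were dimmest on WT replicate 1, and the part of either cell type in these results was not tested.

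The other receptors were not called. Lrp6, the second co-receptor, gave 12.20, 11.66 and 11.59 in WT and 11.77, 11.79 and 11.59 in Zip13-KO iWAT. These overlapped almost fully, with a log2 difference of -0.10 (95% interval -0.53 to 0.33, limma adjusted p = 0.685), and a dimmer Lrp6 probe gave -0.21. Fzd8 (0.47), Fzd6 (0.17), Fzd5 (-0.065) and Fzd1 (-0.32) also had overlapping genotypes. Fzd9 was above background on 2 arrays of each genotype and was not tested.

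The sequences just upstream of Fzd10, Fzd7 and Axin2 are shown because Fzd10 was called, Fzd7 passed the adjusted p and Axin2 is the gene most used to read out beta-catenin activity. They are the 250 bases before the RefSeq start of each gene (GRCm38.p6, all on the + strand), searched on both strands for a TCF/LEF core, the letters CTTTGAA with either or both of the final A bases also allowed to be T. Capitals mark a match.
Fzd10 (chr5:128600856-128601105): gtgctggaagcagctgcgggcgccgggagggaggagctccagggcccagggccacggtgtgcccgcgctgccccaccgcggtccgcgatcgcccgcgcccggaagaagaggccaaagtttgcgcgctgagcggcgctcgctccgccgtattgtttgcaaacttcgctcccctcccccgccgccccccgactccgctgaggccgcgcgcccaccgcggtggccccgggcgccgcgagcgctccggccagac
Fzd7 (chr1:59481897-59482146): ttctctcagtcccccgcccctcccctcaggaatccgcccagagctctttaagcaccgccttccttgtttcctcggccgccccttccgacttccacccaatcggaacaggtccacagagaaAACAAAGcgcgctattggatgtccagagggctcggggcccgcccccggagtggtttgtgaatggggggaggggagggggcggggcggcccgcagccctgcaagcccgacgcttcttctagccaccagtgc
Axin2 (chr11:108920099-108920348): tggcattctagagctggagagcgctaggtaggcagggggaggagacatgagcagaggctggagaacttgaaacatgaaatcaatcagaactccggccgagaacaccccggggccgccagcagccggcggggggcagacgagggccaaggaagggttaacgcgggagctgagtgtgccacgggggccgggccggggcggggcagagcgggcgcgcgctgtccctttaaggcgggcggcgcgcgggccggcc
The window of Fzd7 holds 1 match, AACAAAG, which reads CTTTGTT on the opposite strand and begins 130 bases before the start. Those of Fzd10 and Axin2 hold none, which says only that these letters are absent from these windows. Of 39 promoters listed for 34 of the Wnt genes, 5 (12.8%) hold a match, in Dkk1, Fzd7, Tcf7l2, Wnt11 and Wnt5b, against 14.8% of 32851 promoters of all genes. The letters are a description and no evidence of binding, and Wnt11 (-0.02), Wnt5b (-0.41) and Tcf7l2 (0.21) were not called.

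Among the secreted antagonists 1 gene was called, with the largest fitted fall of the 37 genes tested. Sfrp4, which binds Wnts outside the cell and is a known secreted product of fat tissue, gave log2 intensities of 13.14, 11.65 and 10.92 on the WT arrays and 9.59, 9.78 and 10.05 on the Zip13-KO arrays. All Zip13-KO arrays were below all WT arrays, and the WT arrays were widely spread, with WT replicate 1 brightest. Sfrp4 fell by 2.09 on the log2 scale (SE 0.54, 4.26-fold, limma adjusted p = 0.0303). Without WT replicate 1 it still fell, by 1.47 (adjusted p = 0.0155). The call was lost when WT replicate 2 (-2.22, adjusted p = 0.0594) or any Zip13-KO replicate (-1.98 to -2.22, adjusted p = 0.0673 to 0.0959) was left out, and with no filter on dim probes (adjusted p = 0.0631), where more genes were tested.

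Sfrp2, a paralogue of Sfrp4, was measured at 13.32, 11.68 and 10.96 in WT and 11.12, 11.04 and 11.41 in Zip13-KO iWAT. Here the genotypes overlapped: WT replicate 1 stood alone and the other WT arrays lay among or near the Zip13-KO arrays. The log2 difference was -0.80 (95% interval -2.19 to 0.60, limma adjusted p = 0.311) and shrank to -0.13 without WT replicate 1. Both Sfrp genes were therefore brightest on the same WT array, but on the other WT arrays Sfrp4 remained above every Zip13-KO array.

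Dkk3, a member of the Dickkopf family whose action on Wnt receptors is unsettled, gave 9.67, 8.33 and 8.35 in WT and 8.02, 7.97 and 8.04 in Zip13-KO iWAT. The Zip13-KO arrays were close together and all below WT. The difference of -0.78 (SE 0.36) was not called (limma adjusted p = 0.143), and without WT replicate 1 it was -0.33, which passed the adjusted p (0.0222) and not the fold limit. Dkk2 (-0.30, 95% interval -1.13 to 0.54), Sfrp1 (0.01), Sfrp5 (0.30) and Wif1 (0.31) had overlapping genotypes and were not called. For Sfrp5, known as an inhibitor of Wnt5a in fat, the 95% interval was -0.07 to 0.67. Dkk1 was not well above background on any array, Dkk4 was on 1, and Frzb was on 2, both WT, so these were not tested.

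The spread of the WT arrays set the error of several of these genes. Over the 37 Wnt genes the median SD was 0.34 among WT and 0.17 among Zip13-KO arrays, and the WT SD was the higher one for 28 genes. These SDs were not summarized over all genes. Over all genes tested, the lowest correlation was 0.9856 between WT arrays and 0.9942 between Zip13-KO arrays. A correlation does not measure the spread of single genes, so whether the wider WT spread was particular to Wnt genes was not tested. The WT SD exceeded 0.7, a limit chosen after the values were seen, for 9 genes: Wnt2, Sfrp2, Sfrp4, Fzd2, Rspo2, Wnt16, Wnt9a, Dkk3 and Dkk2. No Wnt gene reached that SD among Zip13-KO arrays (highest 0.54). WT replicate 1 was the brightest WT array for 8 of the 9, all but Rspo2, exceeding the mean of the other WT arrays by 1.16 (Dkk2) to 2.03 (Wnt2) on the log2 scale. As a class, the 7 antagonists had a median of 0.77 above their WT mean on WT replicate 1, -0.25 and -0.44 on WT replicates 2 and 3, and -0.44 to -0.14 on Zip13-KO arrays.

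Stromal markers were brightest on the same WT array. Their median was 0.47 on WT replicate 1, -0.06 and -0.56 on WT replicates 2 and 3, and -0.83 to -0.58 on Zip13-KO arrays, and their summed intensity was 335087 to 751455 in WT and 281719 to 346323 in Zip13-KO iWAT. Macrophage markers stood at 0.35, -0.07 and -0.19 on WT arrays and at -1.30 to -0.93 on Zip13-KO arrays, with sums of 73868 to 113912 and 37088 to 45877. All 14 stromal and all 12 macrophage markers were above the limit for testing. The part of these cells in the values of Sfrp4, Sfrp2, Wnt2, Fzd2 and Dkk3 was not tested.

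**Figure D3:**
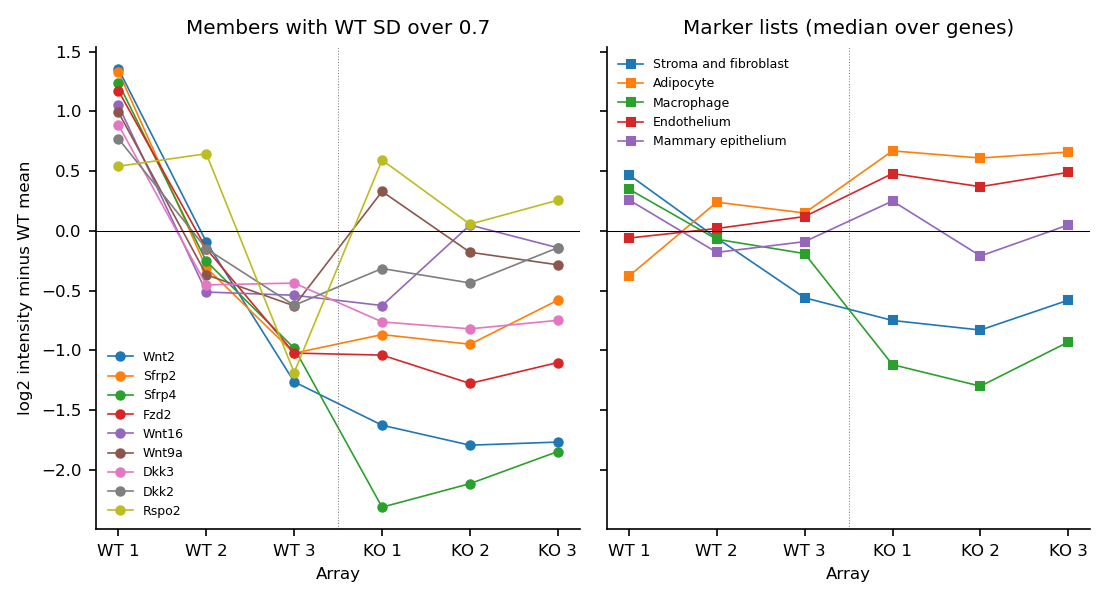
Left, log2 intensity minus the WT mean on each array for the 9 Wnt genes whose WT SD exceeded 0.7; right, the median of the same measure over the tested genes of 5 cell type marker lists. Lines only join the points of a gene or list; WT replicate 1 is the brightest WT array for all but Rspo2 on the left and for stroma, macrophage and mammary epithelium on the right.

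None of the 4 genes that act inside the cell was called by limma, and Ctnnb1 alone had an unadjusted p under 0.05. Ctnnb1 gave 11.55, 11.62 and 11.65 in WT and 11.92, 11.75 and 11.76 in Zip13-KO iWAT. The genotypes were separated by a small amount, 0.20 (95% interval 0.00 to 0.40), that did not pass the test (limma adjusted p = 0.101). Beta-catenin is controlled mainly as a protein, which these arrays do not measure. Axin2, a feedback inhibitor induced by beta-catenin, gave 5.04, 5.69 and 5.64 in WT and 6.44, 6.23 and 5.52 in Zip13-KO iWAT. Zip13-KO replicates 1 and 2 were above every WT array and replicate 3 was not. The difference of 0.61 (SE 0.29, 95% interval -0.09 to 1.30) was not called (limma adjusted p = 0.145), and a dimmer Axin2 probe was above background on 1 array alone. Tcf7l2 gave 7.62, 7.87 and 7.57 in WT and 7.72, 7.82 and 8.15 in Zip13-KO iWAT, with overlap (0.21, 95% interval -0.14 to 0.56). Its other probes gave 0.08 and 0.07. Tcf7l1 did not separate either (-0.07, 95% interval -0.43 to 0.30).

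Other genes of the pathway were read from 4 lists, whose called shares are to be read against the 10.3% higher and 8.38% lower among all genes tested. The genes below are given as single values. Of 22 genes for Wnt secretion, co-receptors and extracellular regulation 17 were tested, 2 were higher and 1 was lower, near the shares of all genes. The heparan sulphate proteoglycan gene Gpc4 rose with Tspan12 (0.72, limma adjusted p = 0.0215), and Gpc6, of the same glypican family, fell (-1.04, 0.0404). Gpc6 was at 7.52, 6.85 and 6.28 in WT and 5.80, 5.93 and 5.80 in Zip13-KO iWAT, again brightest on WT replicate 1. Porcn, the enzyme that attaches the lipid to Wnts, passed the adjusted p (0.00958) with a log2 difference of 0.42, under the fold limit, and was picked after its values were seen. Of 32 genes of the intracellular relay 31 were tested, with 1 higher, the destruction complex gene Apc2 (0.67, 0.00962), and 0 lower.

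The list of reported beta-catenin targets held 22 genes, of which 21 were tested. Of these 1 was called higher and 4 lower, where 10.3% and 8.38% of all genes tested were. The 4 include Fosl1, whose call rests on Zip13-KO values at background. The median log2 difference over the list was -0.29. Tbx3, a transcription factor, rose (0.79, limma adjusted p = 0.00492). Cd44, a cell surface receptor for hyaluronan, fell by 1.07, the cell cycle gene Ccnd1 by 0.62 and Id2, an inhibitor of helix-loop-helix factors, by 0.605. Fosl1, a subunit of AP-1, was above background on all 3 WT arrays and on 0 Zip13-KO arrays. With the latter raised as for Wnt2, Fosl1 was lower by 4.98-fold on average. It entered the test through WT alone, and its limma adjusted p (0.0134) rests on Zip13-KO values at background. These are not read as a measure of Wnt activity: Cd44 is also abundant in macrophages, whose markers fell, and their part here was not tested. The feedback genes Notum, Znrf3 and Rnf43, on the list and picked after their values were seen, had log2 differences between -0.10 and 0.03 and were not called, and Nkd1, another, was at 0.29 (adjusted p = 0.0308), under the fold limit. Its paralogue Nkd2 (-0.41, adjusted p = 0.0994) and Lef1 (-0.54, 0.0705) were lower on every Zip13-KO array and Apcdd1 (0.57, 0.0708) overlapped, and none of these was called. The largest falls on the list that were not called were those of Ccn4 (-2.12, limma adjusted p = 0.107) and Ccn5 (-1.61, 0.0857). Both were lower on every Zip13-KO array and brightest on WT replicate 1. Ccn4 was above background on 2 of 3 Zip13-KO arrays, so its difference rests in part on a value at background.

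Of 26 genes of signalling without beta-catenin 25 were tested, 2 were higher and 3 lower, near the shares of all genes, with a median of 0.03. Celsr2, a cadherin of planar cell polarity, rose by 1.39 (limma adjusted p = 0.00688) from 7.09, 6.75 and 7.21 in WT to 8.43, 8.09 and 8.69 in Zip13-KO iWAT. Its paralogue Celsr3 fell (-1.27, 0.0179), with 2 of 3 Zip13-KO arrays above background. Daam2, a formin that binds Dishevelled, rose (0.67, 0.00706), and the calcium-responsive factors Nfatc1 (-0.63, 0.0236) and Nfatc2 (-0.90, 0.00584) fell. Nfatc2 was at 11.67, 11.71 and 11.72 in WT and 10.62, 10.77 and 11.00 in Zip13-KO iWAT, so all WT arrays were close and well above Zip13-KO. Nfatc1 and Nfatc2 are also known from immune cells, and macrophage (-1.12) and lymph node markers (-0.39) had negative medians; their part was not tested. Lef1, Tcf7, Lgr5, Notum, Znrf3 and Rnf43 each stand on a second list as well.

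**Figure D4:**
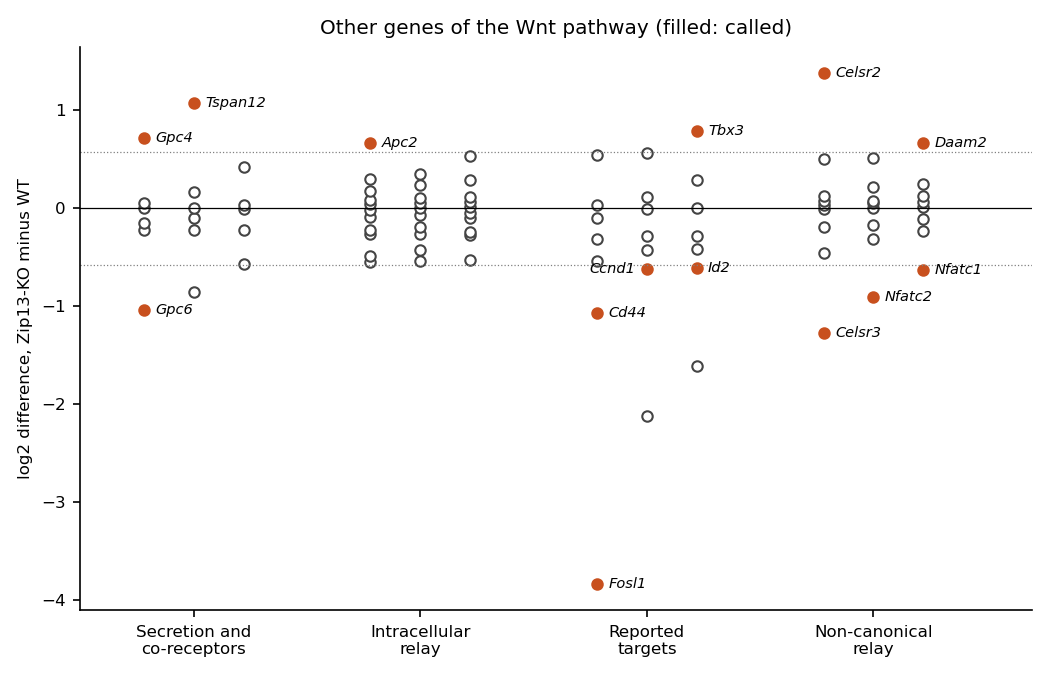
Log2 difference (Zip13-KO minus WT) of each tested gene on 4 lists of other Wnt pathway genes (17, 31, 21 and 25 genes, spread sideways for legibility); filled points are called and named, and dotted lines mark a log2 difference of 0.58 either way. Celsr2 (1.39) lies highest, and Fosl1 lowest, with a value that rests on Zip13-KO arrays at background.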

How the data were processed

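Labelled iWAT RNA of both genotypes (n = 3 each) was read on Agilent SurePrint G3 Mouse GE 8x60K 1-colour arrays on 1 slide. The authors deposited scanner intensities (Feature Extraction 11.5.1.1), corrected for background and not normalized between arrays, and a table of log2 values that ranks probes as the uncorrected median signal does, after quantile normalization. Processed intensities were taken as log2, control and outlier spots left out, spots of a probe averaged and arrays quantile normalized with limma 3.58.1 in R 4.3.3. Probes well above background on all 3 arrays of a genotype were kept, 33041 of 55681, and named by RefSeq accession (GRCm38.p6 annotation), with the brightest kept probe standing for a gene. Genes were compared with limma (lmFit, eBayes) and Benjamini-Hochberg adjustment over 15302 genes. 95% intervals are per gene and unadjusted.

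Local background had a median of 31 to 39.5 intensity units and no spot was saturated. With 3 arrays for each genotype, their number limits the precision. Beyond replicate numbers, nothing in the labels says that samples came from separate animals. The p-values therefore set each difference against the spread between these samples, which may not be the spread between animals. The deviations of same-numbered samples from their genotype means had correlations of -0.021, 0.038 and -0.08. With 3 arrays for each genotype these cannot show whether the numbers pair samples, and the labels tie no number to a litter. WT arrays and Zip13-KO replicate 1 lay in column 1 of the slide, the others in column 2.

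Every Wnt gene is accounted for. Per-array values are given for genes called, for those separated by over 1.5-fold, and for Axin2, Ctnnb1, Tcf7l2, Lrp5 and Lrp6; a few others were added after their values were seen. Of the other pathway lists the called genes are named. Members and lists were chosen with earlier results of these data known. The methods' combined test could not be repeated from its description, so limma stood in. The alternatives were other scalings, background corrections, filters, tests, probes, a replicate block, the slide column and leaving out each array.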

Additional observations from a re-analysis of the deposited data

How the results depend on the processing

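The direction of Wnt5a, Rspo3, Fzd10 and Sfrp4 was the same under every alternative tried, whereas their calls were not. Main counts were 1 Wnt gene higher and 3 lower, and 1576 and 1282 of all genes. Counts of Wnt genes higher and lower were 2 and 3 with 75th percentile scaling and with no fold limit, 0 and 1 with normexp, and 1 and 1 with no background correction and with the deposited table. Counts over all genes were 1768 and 1213 with 75th percentile scaling, 1263 and 1009 with no background correction and 1259 and 1006 with the deposited table. The counts of Wnt genes were 0 and 0 at an adjusted p under 0.01, with the methods' t-test adjusted and with slide column as a covariate. At an adjusted p under 0.01, 707 genes were called higher and 505 lower. Unadjusted, that t-test gave 1 and 3 Wnt genes, with 1552 and 1246 of all genes. The limma fit gave 10 of the 37 Wnt genes an unadjusted p under 0.05. This was not counted over all genes, beyond the 2952 and 2330 that passed the adjusted p. The t-test adjusted gave 1008 and 721, normexp 1156 and 908, and no fold limit 2952 and 2330. With slide column as a covariate, 0 genes were higher and 7 lower; this fit compares WT with Zip13-KO replicate 1 alone in column 1, so slide column and genotype are hard to tell apart here. Whether the replicate numbers pair samples is not known. In the limma fit with the replicate block 1 Wnt gene was higher and 1 lower (Wnt5a and Fzd10), with 1278 and 1051 genes. Rspo3 (adjusted p = 0.0617) and Sfrp4 (0.0647) were not called in it. Leaving out each array in turn gave 0 to 3 Wnt genes higher, 0 to 5 lower, 961 to 1674 genes higher and 782 to 1455 lower. Wnt genes higher and lower were 0 and 2 without WT replicate 1, 3 and 0 without WT replicate 2 and 1 and 5 without WT replicate 3. Leaving out Zip13-KO replicates 1, 2 and 3 gave 0 and 1, 1 and 0, and 1 and 1 respectively.

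Wnt genes near 0, none of them called, changed sign under some alternatives. Sfrp1 was at -0.005 with 75th percentile scaling, -0.033 with normexp, -0.022 with no background correction and -0.018 in the deposited table. Wnt11 was at 0.041 with normexp and at 0.045 both with no background correction and in the deposited table, Fzd5 at 0.017 and 0.021 in these last, and Wnt10b at 0.026 with normexp. With slide column as a covariate Wnt10a was at -0.031 and Wnt9a at 0.33. Leaving out each array in turn gave ranges that cross 0 for Dkk2 (-0.609 to 0.089), Lrp6 (-0.214 to 0.093), Rspo1 (-0.028 to 0.282), Rspo2 (-0.291 to 0.625), Sfrp1 (-0.114 to 0.212), Tcf7l1 (-0.182 to 0.037), Fzd5 (-0.162 to 0.103), Fzd6 (-0.004 to 0.382), Wnt6 (-0.257 to 0.008), Wnt9a (-0.358 to 0.453), Wnt10a (-0.102 to 0.328), Wnt10b (-0.239 to 0.127), Wnt11 (-0.235 to 0.131) and Wnt16 (-0.508 to 0.287). The cause was not tested.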
